A study of Homo sapiens with 6 samples.

Results

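The mRNA levels of 10 aldehyde dehydrogenase genes were examined in the ovarian cancer cell lines Hey and SKOV3: ALDH1A1, ALDH1A2, ALDH1A3, ALDH1B1, ALDH1L2, ALDH2, ALDH3A1, ALDH3A2, ALDH7A1 and ALDH18A1. They were taken by symbol from the 59008 gene symbols of the deposited expression table, and no cut on their values was used. The choice was made with earlier results of these data known. Each line was sequenced in 3 states, with 1 library per line and state and 6 libraries in all. Parental cells were untreated. Polyploid giant cancer cells (PGCCs), large cells with several genomes' worth of DNA that survive the drug, had been exposed to 500 nM paclitaxel for 16 h and left to recover for 3 days according to their treatment labels, although the title of the SKOV3 PGCC library gives day 7. Daughter cells, the smaller cells that grow out of PGCCs, had the same exposure and 30 days of recovery, and each daughter library is titled as clone 1, so that a trait of 1 clone and a trait of the state cannot be told apart. Hey cells were grown in MEM Eagle and SKOV3 cells in RPMI-1640, both with serum, so that line and medium cannot be told apart either.

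Aldehyde dehydrogenases oxidize reactive aldehydes to carboxylic acids with NAD or NADP as the electron acceptor. Some members clear aldehydes that come from alcohol or from oxidized lipid, some make retinoic acid from retinal, and others carry out steps of amino acid and folate metabolism. High aldehyde dehydrogenase activity, often credited to ALDH1A1 or ALDH1A3, is widely used as a marker of stem-like and drug-tolerant cells in ovarian cancer. Transcript levels, not enzyme activity, were measured here.

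Levels are transcripts per 1000000 (TPM), a measure per transcript length that is scaled within each library and can therefore be compared between genes. Differences are given on the log2(TPM + 1) scale, which understates the change of genes with low levels, and a gene counted as past 2-fold when that difference was 1 or more in size. With 1 library per group these differences have no error and no test. The columns summed to between 911825 and 920497 TPM, 19920 to 25370 symbols were above 0, and the table holds no reads per gene, so that no counting error can be given. Transcripts of the mitochondrial genome held 2.64% to 14.8% of a library. Across genes, each library correlated best with another library of its own line, and the lowest of these values belonged to the SKOV3 daughter library (Pearson's r = 0.882). PAX8 and the keratins KRT7, KRT8 and KRT18, markers of ovarian carcinoma and epithelium, were at 54.7 TPM or above in all 6 libraries. Others of these markers were low. EPCAM was at 1.43 TPM or below and KRT19 at 3.60 TPM or below in Hey cells. MUC16 was at 1.59 TPM or below and WT1 at 4.10 TPM or below in both lines.

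Of the 10 genes, ALDH1A1 and ALDH1A3 reached the highest levels, each in 1 line. The promoters of these genes are shown because the results turn on them. ALDH1A1 lies on the minus strand of chromosome 9, from 72900671 to 73080442, and ALDH1A3 on the plus strand of chromosome 15, from 100877714 to 100916626 (GENCODE 44, GRCh38). The sequences below are RefSeq's for GRCh38.p14 and run 5′ to 3′ from 250 to 19 bases before the start that RefSeq gives the gene, which lies inside the GENCODE span of either gene, at chr9:72953072-72953303 (minus strand) and chr15:100879581-100879812 (plus strand). Capitals mark the letters CCAAT, the CCAAT box, and GGGCGG, the GC box, or their reverse complements ATTGG and CCGCCC.
ALDH1A1: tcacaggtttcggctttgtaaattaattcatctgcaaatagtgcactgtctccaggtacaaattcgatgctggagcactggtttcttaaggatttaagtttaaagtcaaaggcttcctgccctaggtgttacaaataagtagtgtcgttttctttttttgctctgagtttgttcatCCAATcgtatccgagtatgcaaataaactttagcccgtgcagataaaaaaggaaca
ALDH1A3: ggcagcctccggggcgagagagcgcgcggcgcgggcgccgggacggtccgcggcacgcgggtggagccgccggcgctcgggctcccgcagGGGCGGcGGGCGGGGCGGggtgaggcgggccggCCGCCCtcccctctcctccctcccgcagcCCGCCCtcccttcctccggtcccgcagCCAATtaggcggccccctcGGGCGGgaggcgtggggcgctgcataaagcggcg
The windows differ in composition. The ALDH1A1 window was 38.4% G or C with 6 CG dinucleotides, and the ALDH1A3 window 82.3% with 37, beside medians of 57.8% and 10 over 35116 promoters cut to the same length. Both held 1 CCAAT, at 74 bases before the start in ALDH1A1 and at 71 in ALDH1A3, a match that 30.9% of the promoters had. GGGCGG or its reverse complement stood at 6 places in the ALDH1A3 window, some of them overlapping, and was not found in the ALDH1A1 window; 40.2% of the promoters held it. TATAAA or its reverse complement TTTATA, the TATA box letters, stood in neither window and in 10.4% of the promoters. These matches describe the letters only. RefSeq promoters of 7 of the 10 genes were matched, and those of ALDH2, ALDH1L2 and ALDH3A1 were not.

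**Figure D1:**
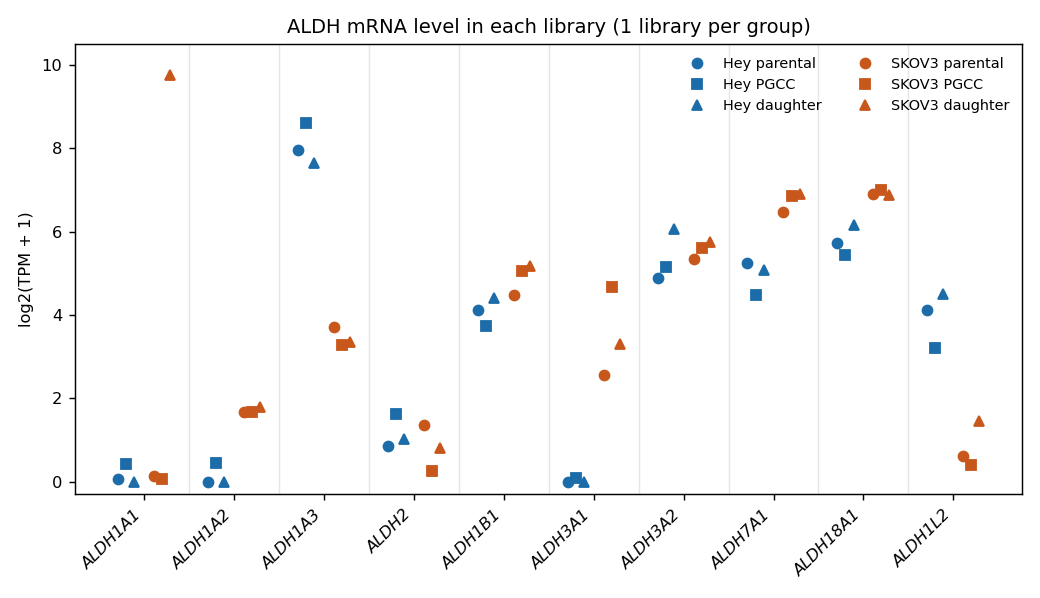
Level of each of the 10 ALDH genes in each library, as log2(TPM + 1) on the vertical axis, with Hey in blue, SKOV3 in orange, and the state given by the symbol. Each point is 1 library and there are no error bars. ALDH1A1 stands near 0 in 5 libraries and at 859 TPM in SKOV3 daughter cells, and the 3 Hey points of ALDH1A3 stand above all its SKOV3 points.

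ALDH1A1, ALDH1A2 and ALDH1A3 are the retinal dehydrogenases, which make retinoic acid in the cytosol. The level of ALDH1A1 was 0.047 (parental), 0.354 (PGCC) and 0 TPM (daughter) in Hey, and 0.097, 0.047 and 859 TPM in the same states of SKOV3. It was thus nearly absent from 5 libraries and ranked 128th of all symbols by TPM in the sixth. The difference between SKOV3 daughter and parental cells was 9.61 and that between daughter cells and PGCCs 9.68, and in both comparisons ALDH1A1 had the largest increase of the 14988 genes whose TPM averaged at least 1 over the 6 libraries, called measured genes below. ALDH1A1, ALDH1A2 and ALDH2 reached that mean only through their highest library, since the other 5 averaged below 1 TPM. In Hey the daughter minus parental difference was -0.07. In RNA from bulk cells, more cells with the transcript and more transcript per cell cannot be told apart. ALDH1A1 mRNA made up 0.0942% of the SKOV3 daughter library's TPM.

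ALDH1A3 was the abundant retinal dehydrogenase of Hey. Hey had 246.8 TPM in the parental library, 386.6 TPM in the PGCC library and 198.5 TPM in the daughter library, and SKOV3 had 12.2, 8.76 and 9.14 TPM in the same order. All Hey values thus stood above all SKOV3 values, and within each line no comparison of states passed 2-fold. PGCCs differed from parental cells by 0.65 in Hey and by -0.43 in SKOV3, and daughter cells from PGCCs by -0.96 and 0.06. The Hey value of -0.96 lay near the threshold and passed it under 4 alternatives, at -1.01 to -1.07, among them division by median ratios and removal of the GC and length trend. ALDH1A3-AS1 and ALDH1A2-AS1 are antisense genes that overlap ALDH1A3 and ALDH1A2, and whether the counting used the strand is not given in the sources used here.

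ALDH1A2, on the minus strand of chromosome 15 from 57953424 to 58497866, was listed at 0 TPM in Hey parental and daughter cells and was at 0.373 in Hey PGCCs, while the SKOV3 libraries had 2.21, 2.21 and 2.44 TPM for parental cells, PGCCs and daughter cells. It was low everywhere, with SKOV3 above Hey in every state and little difference between the SKOV3 states.

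ALDH2 and ALDH1B1 are mitochondrial enzymes that oxidize acetaldehyde, and ALDH2 is the main enzyme of this step in the liver. ALDH2 lies on the plus strand of chromosome 12 from 111766887 to 111817532, and ALDH1B1 on the plus strand of chromosome 9 from 38392702 to 38398661. ALDH2 was at 0.823, 2.11 and 1.04 TPM in Hey parental cells, PGCCs and daughter cells and at 1.58, 0.203 and 0.753 TPM in the SKOV3 ones. Its level was low in all libraries, and the PGCC library was the highest of Hey and the lowest of SKOV3. PGCCs minus parental cells gave 0.77 in Hey and -1.10 in SKOV3. ALDH1B1 was the more abundant of the pair, with 16.3, 12.3 and 20.1 TPM in Hey and 21.3, 32.4 and 34.9 TPM in SKOV3. The lines did not overlap, SKOV3 being higher, but the gap between Hey daughter and SKOV3 parental cells was narrow. Hey minus SKOV3 parental cells gave -0.37, and -0.07 under the alternative that made it smallest. The differences between states stayed within 0.69 in size.

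ALDH3A1 and ALDH3A2 act on aldehydes from lipids. ALDH3A1 oxidizes medium-chain and aromatic aldehydes and is abundant in the cornea, and ALDH3A2 is the fatty aldehyde dehydrogenase of the endoplasmic reticulum. The genes are neighbours on chromosome 17, ALDH3A2 on the plus strand from 19648136 to 19685760 and ALDH3A1 on the minus strand from 19737984 to 19748943, with 52223 bases between the end of ALDH3A2 and the start of ALDH3A1 (GENCODE 44). ALDH3A1 was listed at 0 in Hey parental and daughter cells and at 0.061 TPM in Hey PGCCs, and in SKOV3 it was at 4.95 (parental), 24.4 (PGCC) and 8.82 TPM (daughter). The SKOV3 PGCC library stood highest. The difference from parental cells was 2.10, the 98th largest increase of 14988 genes, and daughter cells were lower than PGCCs by 1.37 (a difference of -1.37).

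Across 13348 genes the SKOV3 PGCC minus parental difference followed transcript GC content (Spearman's rho = 0.72, against -0.04 in Hey), and the ALDH3A1 transcript is 60.3% G or C. With the GC and length trend taken out, the ALDH3A1 difference was 1.36 for PGCCs minus parental cells and -0.89 for daughter cells minus PGCCs, the latter under 2-fold. ALDH3A2 was at 28.7, 34.4 and 65.6 TPM in Hey parental cells, PGCCs and daughter cells, and at 39.8, 47.4 and 52.6 TPM in SKOV3. The states stood in the same order in both lines. Only the Hey daughter minus parental difference, 1.16, passed 2-fold. The matching SKOV3 difference was 0.40.

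ALDH7A1 degrades the semialdehyde that arises from lysine, and ALDH18A1 makes the precursor of proline and ornithine from glutamate. ALDH7A1 lies on the minus strand of chromosome 5 from 126531200 to 126595362, and ALDH18A1 on the minus strand of chromosome 10 from 95605941 to 95656711. ALDH7A1 was at 37.0, 21.4 and 33.0 TPM in Hey parental cells, PGCCs and daughter cells and at 87.6, 114 and 119 TPM in SKOV3. Every SKOV3 library was above every Hey library. Hey PGCCs were the lowest, at -0.76 against their parental cells. ALDH18A1 had 51.7, 42.0 and 70.7 TPM in Hey and 118.7, 127.6 and 116.1 TPM in SKOV3, again with no overlap of the lines and with no comparison of states past 2-fold.

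ALDH1L2 is the mitochondrial 10-formyltetrahydrofolate dehydrogenase, which releases carbon dioxide from a folate-bound one-carbon unit while making NADPH. Its gene lies on the minus strand of chromosome 12 from 105019784 to 105107643. Its levels in Hey were 16.4 (parental), 8.22 (PGCC) and 21.8 TPM (daughter), and those in SKOV3 0.523, 0.318 and 1.74 TPM in the same order. Hey stood above SKOV3 in every state, and in both lines PGCCs were the lowest and daughter cells the highest. Daughter cells differed from PGCCs by 1.30 in Hey and 1.06 in SKOV3. The SKOV3 value rests on levels below 2 TPM and was 0.60 with the GC and length trend taken out.

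Summed over the 10 genes, the Hey libraries held 398 (parental), 508 (PGCC) and 411 TPM (daughter), and those of SKOV3 held 289, 357 and 1204 TPM in the same order. Different genes held most of it. ALDH1A3 made up 62.1%, 76.1% and 48.3% of the Hey sums in this order of states. In SKOV3 parental cells ALDH18A1 held 41.1% and ALDH7A1 30.3%, and in PGCCs they held 35.7% and 31.9%. In SKOV3 daughter cells ALDH1A1 held 71.3%, ALDH7A1 9.85% and ALDH18A1 9.65%, while the TPM of the latter 2 genes was 119 and 116, near the PGCC values.

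**Figure D2:**
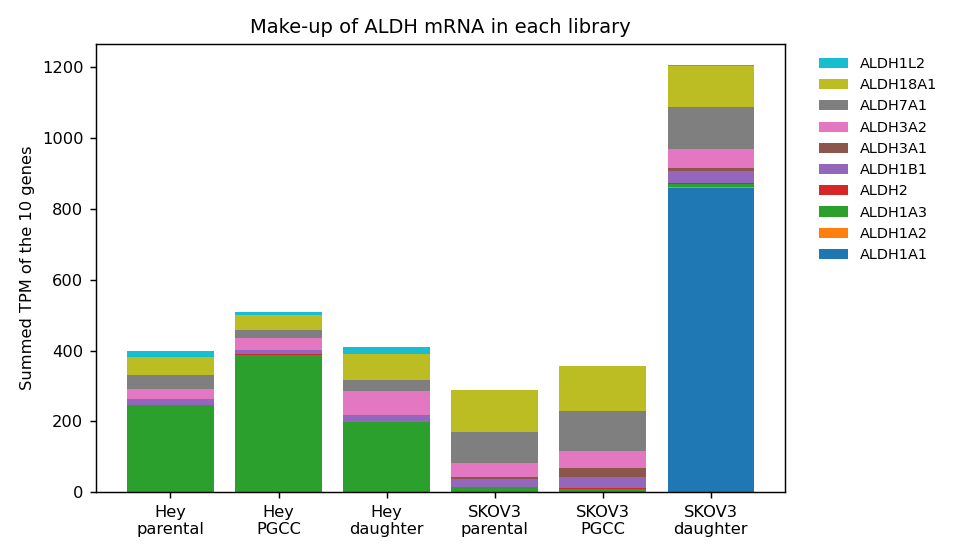
Summed TPM of the 10 ALDH genes (vertical axis) in each of the 6 libraries, each bar 1 library, stacked by gene. The Hey bars are mostly ALDH1A3, the SKOV3 parental and PGCC bars mostly ALDH18A1 and ALDH7A1, and the SKOV3 daughter bar, the tallest at 1204 TPM, mostly ALDH1A1.

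The number of the 10 genes past 2-fold was read against that of all 14988 measured genes, which include all 10. In Hey PGCCs against parental cells 0 of the 10 passed 2-fold, beside 12.9% of all genes, 7.67% higher and 5.22% lower. In Hey daughter cells against parental cells 1 did, ALDH3A2, which was higher, beside 10.0% of all genes (6.31% higher and 3.73% lower). In Hey daughter cells against PGCCs 1 did, ALDH1L2, which was higher, beside 18.1% (9.95% higher and 8.13% lower). None of these counts stood clearly above its background.

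In SKOV3, PGCCs against parental cells had 2 of the 10 past 2-fold, ALDH3A1 higher and ALDH2 lower, beside 14.9% of all genes (9.94% higher and 4.96% lower). Daughter cells against parental cells had 1, ALDH1A1, which was higher, beside 21.5% (15.1% higher and 6.34% lower). Daughter cells against PGCCs had 3, ALDH1A1 and ALDH1L2 higher and ALDH3A1 lower, beside 23.9% (14.6% higher and 9.25% lower). Here too the counts lay near the background. Their median daughter minus parental difference was 0.41 in SKOV3, beside 0.15 over all genes, and 0.08 in Hey, beside 0.05. The comparisons of a line share libraries and are not independent of each other.

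**Figure D3:**
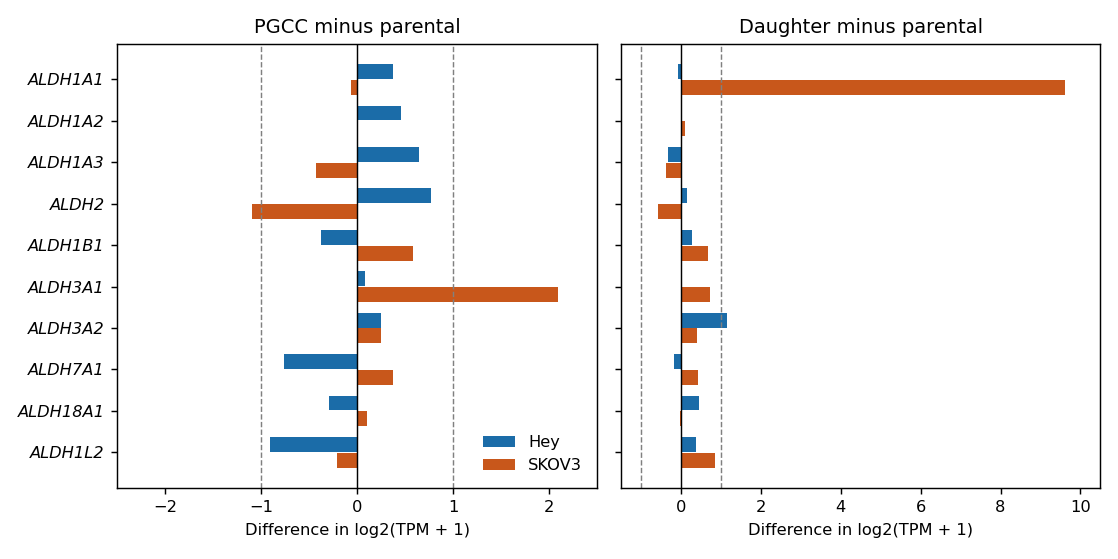
Difference in log2(TPM + 1) of each ALDH gene between PGCCs and parental cells (left) and between daughter and parental cells (right), with Hey in blue and SKOV3 in orange. Each bar compares 1 library with 1 library, and dashed lines mark 2-fold. On the left ALDH3A1 and ALDH2 in SKOV3 pass 2-fold, and on the right ALDH1A1 in SKOV3 (9.61) and ALDH3A2 in Hey (1.16).

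The states were also tested with the lines as repeats, in limma fits over all 14988 genes with Benjamini-Hochberg adjustment, whose spread is the disagreement between the lines. For PGCCs against parental cells 0 of the 10 genes had an adjusted p under 0.05 in limma, beside 0.0200% of all genes. By unadjusted p under 0.05 it was also 0 of the 10, while 174 of all genes were higher and 235 lower. For daughter against parental cells the limma counts were 0 and 0, beside 0.0133% of all genes by adjusted p. By unadjusted p 364 of all genes were higher and 144 lower. For daughter cells against PGCCs 0 of the 10 passed in limma, beside 0% of all genes. By unadjusted p under 0.05, 461 of all 14988 genes were higher and 297 lower, and 1 of the 10 passed. This gene was ALDH1L2, higher in daughter cells by 1.18 ± 0.457 (SE, 2 lines, limma adjusted p = 0.908). For ALDH1A1, which moved in 1 line, the fitted daughter minus parental difference was 4.77 with a 95% interval from -0.30 to 9.85 (limma adjusted p = 1).

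The lines differed from each other in more of the 10 genes than the states did. Between parental cells 6 of the 10 differed at least 2-fold, with ALDH1A3 and ALDH1L2 higher in Hey and ALDH1A2, ALDH3A1, ALDH7A1 and ALDH18A1 higher in SKOV3. Of all genes 35.7% did, 11.5% being higher in Hey and 24.2% lower. Between PGCCs 8 of the 10 did, beside 43.0% of all genes (13.4% higher in Hey and 29.6% lower), ALDH2 and ALDH1B1 being added to the former 6. Between daughter cells 6 did, beside 41.8% (12.3% higher in Hey and 29.5% lower), with ALDH1A1 in the place of ALDH18A1. The libraries of the lines did not overlap for 2 genes that were higher in Hey, ALDH1A3 and ALDH1L2, beside 12.8% of all genes. They did not overlap for 5 genes that were higher in SKOV3, ALDH1A2, ALDH1B1, ALDH3A1, ALDH7A1 and ALDH18A1, beside 31.8%. For ALDH1B1 the gap was narrow, from 20.1 TPM in Hey daughter to 21.3 TPM in SKOV3 parental cells. The median of all genes was itself lower in Hey, at -0.29 for the parental, -0.35 for the PGCC and -0.38 for the daughter libraries. After each library was divided by its median ratio to the geometric mean of the 6, those medians were -0.01, -0.08 and -0.02, and the parental differences of ALDH7A1 and ALDH18A1 were -0.91 and -0.87, under 2-fold and in the same direction.

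The limma fit with state as a block gave an adjusted p under 0.05 for 5 of the 10 genes, beside 20.6% of all genes. ALDH1A3 was higher in Hey by 4.61 ± 0.341 (SE, 3 states per line, adjusted p = 0.000338) and ALDH1L2 by 3.12 ± 0.373 (adjusted p = 0.00201). ALDH3A1 was lower in Hey, at -3.48 ± 0.498 (adjusted p = 0.00411), as were ALDH7A1 at -1.80 ± 0.335 (adjusted p = 0.0112) and ALDH18A1 at -1.16 ± 0.313 (adjusted p = 0.0397). ALDH1A2, at -1.56 ± 0.463, missed the threshold (adjusted p = 0.0519), and ALDH1B1, ALDH1A1, ALDH2 and ALDH3A2 did not pass it either (adjusted p of 0.121, 0.237, 0.652 and 0.684). The fit has 2 residual degrees of freedom, and the 3 states of a line are not replicate cultures. Without the SKOV3 PGCC library, or without both PGCC libraries, limma called 0 of the 10 and 0 of all genes. In each of these fits 6 of the 10 had an unadjusted p under 0.05. Of all 14988 genes, 1234 higher in Hey and 2843 lower had one in the first fit, and 1211 and 2871 in the second. The ALDH1A3 difference was 4.27 in both fits.

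**Figure D4:**
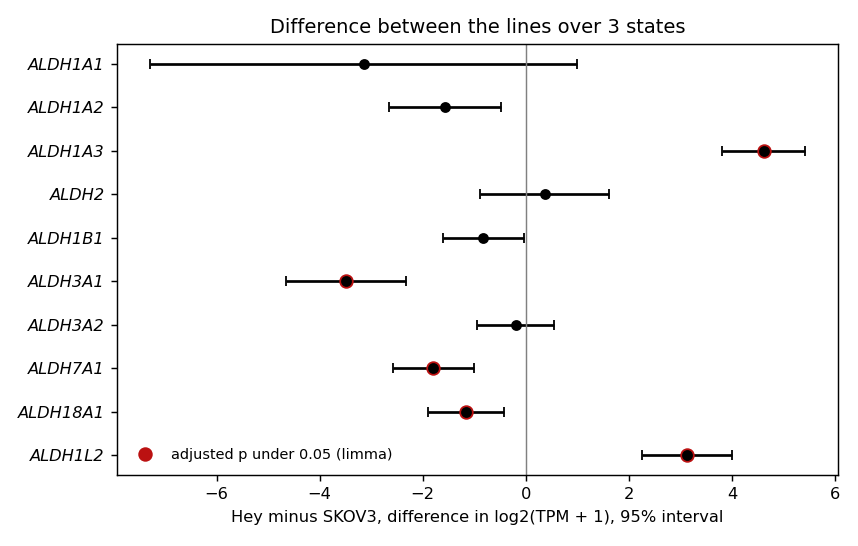
Difference between Hey and SKOV3 over the 3 states (horizontal axis, log2(TPM + 1)) for each ALDH gene, with 95% intervals from limma. Red rings mark the 5 genes with an adjusted p under 0.05; ALDH1A3 (4.61) and ALDH1L2 (3.12) lie on the Hey side and ALDH3A1 (-3.48), ALDH7A1 (-1.80) and ALDH18A1 (-1.16) on the SKOV3 side.

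The gene with the 6-library profile most like that of ALDH1A1, among 10780 genes whose TPM averaged 5 or more, was CCL2, a chemokine that attracts monocytes. The measure was the root mean square distance between centred log2(TPM + 1) profiles, which was 0.18. CCL2 was at 0, 0.157 and 0 TPM in Hey parental cells, PGCCs and daughter cells, and at 0, 0 and 591 TPM in SKOV3. RPL38P4, a ribosomal protein pseudogene, followed at 0.34 and CLDN16, a tight junction protein, at 0.75. For ALDH3A1 the nearest were COX7A1 (0.17), NAPRT (0.24) and RIMS4 (0.27), for ALDH3A2 they were PAAF1 (0.11), GID8 (0.12) and ACAD10 (0.13), and for ALDH1L2 they were ME3 (0.12), ANK2 (0.20) and CNRIP1 (0.23). The genes named for ALDH1A1, and ALDH1A1 itself, reached the mean of 5 TPM only through the SKOV3 daughter library. Those named for ALDH3A1, and ALDH3A1 itself, reached it only through the SKOV3 PGCC library. Likeness in these cases is therefore largely set by that minimum and by 1 library.

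Genes next to ALDH1A1 did not share its difference in SKOV3 daughter cells. Of 17 annotated genes within 1 Mb on either side of its GENCODE span, a window chosen after the values were seen, 6 were measured. Their SKOV3 daughter minus parental differences ranged from -1.19 to 0.34 with a median of 0.05. The nearest of them, ANXA1, encodes an abundant phospholipid-binding protein and lies 71.4 kb from the edge of that span. It lies farther from the RefSeq start used above, which is inside the span. ANXA1 was at 1549 TPM in SKOV3 parental and 1805 TPM in SKOV3 daughter cells, a difference of 0.22.

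The SKOV3 daughter library also differed from its parental library in marker genes of other cell types. The 8 fibroblast markers summed to 13.2 (parental), 12.6 (PGCC) and 28.2 TPM (daughter) in SKOV3. Of the 3 measured ones COL1A1 was past 2-fold higher in daughter than in parental cells, beside 15.1% of all genes. COL3A1 was listed at 0 in all SKOV3 libraries. Of the other fibroblast markers, LUM was at 8.84 in SKOV3 parental and 5.56 TPM in daughter cells and DCN at 1.33 and 0.029 TPM. FAP was at 0.249 and 0 TPM and COL1A2 at 0.103 and 0.0137 TPM. PDGFRB was higher in daughter cells, at 0.280 and 5.35 TPM, as was PDGFRA at 0.0074 and 0.945 TPM. The median difference of the 3 measured ones, COL1A1, LUM and FAP, was -0.32, which is the FAP difference. The 6 leukocyte markers summed to 17.7, 20.7 and 1.93 TPM in this order, nearly all of it CD68 except in daughter cells, with CD3E listed at 0. The 3 endothelial markers summed to 0.062, 0.273 and 2.88 TPM. EPCAM was at 68.8 TPM in parental and 8.15 TPM in daughter cells of SKOV3, and KRT19 at 292 and 80.2 TPM. The epithelial list did not move one way. PAX8 was at 65.6 and 112 TPM, KRT7 at 417 and 487 TPM and KRT18 at 220 and 414 TPM. Of the 7 measured genes of this list 1 was past 2-fold higher and 2 lower, with a median of 0.22. Of all genes 15.1% were higher and 6.34% lower in this comparison, with a median of 0.15. The part of these marker genes in the ALDH1A1 difference was not tested.

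The pathway of retinoic acid, the product of the ALDH1A enzymes, was described by 21 genes for its synthesis, binding, degradation and receptors, of which 14 were measured. In SKOV3 daughter against parental cells 6 of these 14 were past 2-fold higher and 1 lower, with a list median of 0.74 beside 0.15 over all genes, of which 15.1% were higher and 6.34% lower. DHRS3, a retinal reductase, was at 1.73 (parental), 4.24 (PGCC) and 16.2 TPM (daughter) in SKOV3. CRABP2, which carries retinoic acid to its receptors, was at 4.80, 10.9 and 33.2 TPM. CYP26B1, which degrades retinoic acid, was at 1.16, 2.31 and 4.08 TPM.

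Among the SKOV3 libraries all 3 of these genes stood highest in the daughter library. BCO1, which cleaves beta-carotene, was at 0.083 TPM in parental and 10.9 TPM in daughter cells. RDH11, a retinal reductase, and RARB, a retinoic acid receptor, were the other genes past 2-fold higher, with differences of 1.02 and 1.20. The lower gene was CRABP1, a binding protein for retinoic acid, at -2.22. BCO1 and CRABP1 were measured only through their highest library, and of the 12 genes without them 5 were higher and 0 lower, with a median of 0.74. RDH11, RARB and CRABP1 are named after their values were seen.

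In Hey, ALDH1A1 was at 0 TPM and ALDH1A3 at 198.5 TPM in daughter cells. There 1 of the 14 was past 2-fold higher in daughter than in parental cells, CYP26B1 (1.01), and 1 lower, RARG (-1.75). Of all genes 6.31% were higher and 3.73% lower, so these counts lay near the background. DHRS3 was at -0.94 there. The difference between the lines in these changes was not tested. With the median-ratio division, and with the GC and length trend taken out, the SKOV3 count was 5 higher and 1 lower in either case, and the Hey count 0 higher and 2 lower, the CYP26B1 difference being 0.95 and 0.91. SKOV3 PGCCs, with ALDH1A1 at 0.047 TPM, had 1 of the 14 higher and 0 lower against parental cells, beside 9.94% and 4.96% of all genes. Their list median was 0.59, beside 0.02 over all genes, and 0.11 with the GC and length trend taken out.

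**Figure D5:**
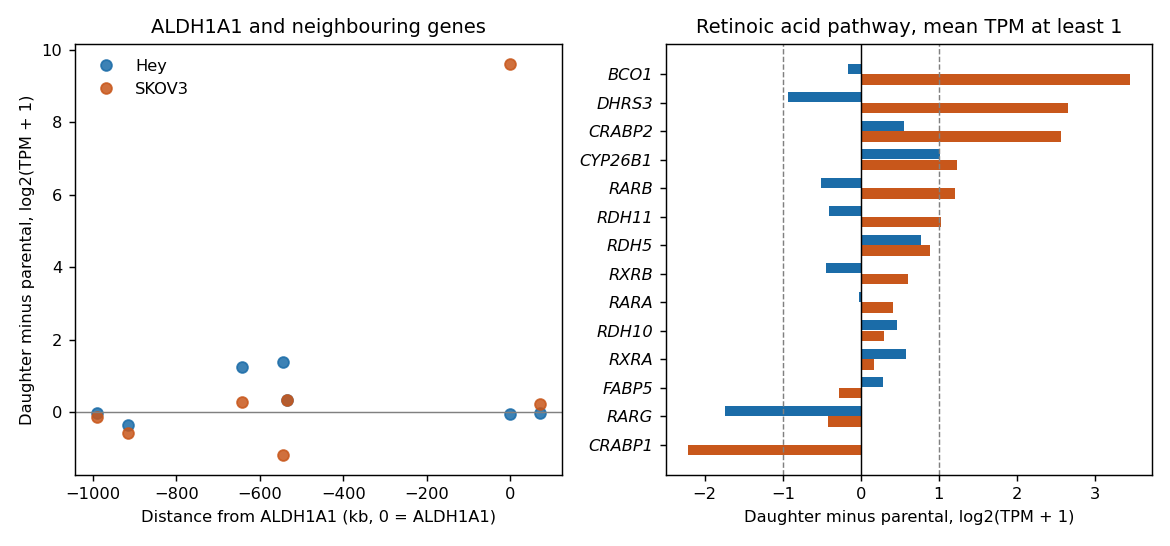
Left, daughter minus parental difference in log2(TPM + 1) of ALDH1A1 and of the 6 measured genes within 1 Mb, against their distance in kb from its GENCODE span. Right, the same difference for the 14 measured retinoic acid pathway genes, with Hey in blue and SKOV3 in orange in both panels and dashed lines at 2-fold. ALDH1A1 in SKOV3 stands at 9.61 while its neighbours lie between -1.19 and 0.34, and 6 retinoic acid genes pass 2-fold upward in SKOV3.

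For the folate pathway, in which ALDH1L2 acts, 15 of 16 listed genes were measured. In Hey PGCCs 8 of them were past 2-fold lower than in parental cells and 1 higher, with a median of -1.02 beside 0.00 over all genes, of which 5.22% were lower; ALDH1L2 itself was at -0.91. MTHFD1, which interconverts folate-bound one-carbon units, went from 106 TPM in Hey parental cells to 34.7 in PGCCs, and TYMS, which makes thymidylate, from 195 to 87.3. In SKOV3 PGCCs 3 of the 15 were lower, beside 4.96% of all genes, and 0 higher, and 1 was lower with the GC and length trend taken out. The 6 proliferation markers were beside these values lower in Hey PGCCs, 6 of 6 past 2-fold, with a median of -2.24, and in SKOV3 PGCCs 2 of 6 were. Their part in the ALDH1L2 values was not tested.

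Beside ALDH3A1, the 16 measured targets of the xenobiotic receptor AHR and of NRF2, a regulator of the oxidative stress response, had 2 genes past 2-fold higher and 0 lower in SKOV3 PGCCs, where 9.94% of all genes were higher. HMOX1, which degrades heme, was at 11.4 TPM in SKOV3 parental cells and 30.5 in PGCCs, and OSGIN1, an oxidative stress-induced gene, at 3.35 and 8.41. With the GC and length trend taken out the count was 0. In Hey PGCCs, with ALDH3A1 near 0, 5 of the 16 were higher, beside 7.67% of all genes, HMOX1 going from 9.54 to 49.9 TPM. Of 12 measured alcohol and aldehyde oxidoreductases outside the family, 2 were past 2-fold higher in SKOV3 PGCCs, AKR1C1 and AKR1C2, beside 9.94% of all genes. In Hey PGCCs 4 were, beside 7.67%. CYP2E1, 1 of these 4, was measured only through its highest library, and of the 11 genes without it 3 were higher in Hey PGCCs. The Hey count for the 12 was also 3 with the median-ratio division and with the GC and length trend taken out. AKR1C1, an aldo-keto reductase, was at 9.82 and 54.5 TPM in Hey parental cells and PGCCs and at 42.9 and 108.4 TPM in SKOV3.

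For the amino acid enzymes the surrounding genes were as follows. Of 8 measured genes of proline and ornithine metabolism, 1 was past 2-fold higher in SKOV3 PGCCs and 3 in SKOV3 daughter cells, against parental cells, beside 9.94% and 15.1% of all genes, while ALDH18A1 differed by 0.10 and -0.03. PYCR1, which completes proline synthesis, was at 12.8, 33.6 and 33.4 TPM in SKOV3 parental cells, PGCCs and daughter cells. With the GC and length trend taken out the counts were 0 and 2, and its PGCC difference was 0.43. In Hey 0 of the 8 were past 2-fold in PGCCs or daughter cells against parental cells, beside 12.9% and 10.0% of all genes. Of 15 amino acid response genes, 6 were past 2-fold higher in SKOV3 daughter cells, beside 15.1% of all genes, and 1 in Hey daughter cells, beside 6.31%. The Hey one was ASNS, asparagine synthetase, which was also among those of SKOV3. It was at 370 TPM in parental and 954 TPM in daughter cells of Hey, and at 19.2 and 173 TPM in those of SKOV3.

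Of 5 measured lysine catabolism genes, which surround ALDH7A1, AASS was past 2-fold higher in SKOV3 daughter cells (0.390 to 2.58 TPM) and AADAT lower in SKOV3 PGCCs (19.7 to 9.29 TPM). Of all genes 15.1% and 4.96% were past 2-fold in these directions, and the AADAT difference was -0.59, under 2-fold, with the GC and length trend taken out. In Hey 0 of the 5 passed in either comparison with parental cells, beside 12.9% (PGCCs) and 10.0% (daughter cells) of all genes. Of 9 genes that form or use fatty aldehydes, the substrates of ALDH3A2, 1 was past 2-fold higher in SKOV3 daughter cells, SGPL1, which splits sphingosine phosphate into a fatty aldehyde and phosphoethanolamine (31.4 to 75.9 TPM). Of all genes 15.1% were, and with the GC and length trend taken out the SGPL1 difference was 0.99, under 2-fold. In Hey daughter cells, where ALDH3A2 was past 2-fold, 0 of the 9 were, beside 10.0% of all genes. After the median-ratio division 2 of the 9 were past 2-fold lower.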

How the data were processed

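RNA of 6 libraries, 1 for each line (Hey, SKOV3) and state (parental, PGCC, daughter), was analysed. The authors processed the reads with fastp and quantified them with Salmon 0.14.1 against the human transcriptome (hg38), and deposited TPM values per gene symbol, which were used as deposited. The annotation release, the summing of transcripts to symbols, strand use and bias options are not given in the sources used here. The deposited table holds no reads per gene, so no count test was run and no counting error is given.

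Differences of log2(TPM + 1) (pseudocount 1) were called at 2-fold, over the 14988 measured genes, whose TPM averaged at least 1 over the libraries. limma 3.58.1 in R 4.3.3 was fitted on the same scale with terms for state and line, an intensity trend in eBayes and p-values adjusted by Benjamini-Hochberg over the measured genes. Other steps used Python 3.11.15 with pandas 2.3.3, scipy 1.17.1 and statsmodels 0.14.6. GC and length trends were fitted by lowess (fraction 0.3, 2 passes) for the 13348 of these genes matched by symbol to GENCODE 44. The procedures were tested on simulated data.

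The 10 members and the gene lists were chosen with earlier results of these data known. From the retinoic acid list and from the AHR and NRF2 list 1 gene each is not reported here and was left out of the counts and medians. All members and all fibroblast markers are named. A list gene is named where it was among the 3 largest differences of its list in PGCCs or daughter cells against parental cells of a line and was measured, or as the exception stated beside it. Like genes are the 3 nearest profiles for members past 2-fold within a line at a mean TPM of at least 5. Alternatives were a pseudocount of 0.1, median-ratio division, quantile normalization, leaving out mitochondrial transcripts, GC and length trend removal, thresholds of 1.5-fold and 3-fold, minimum mean TPM of 5 or of any value above 0, no eBayes trend, and leaving out PGCC libraries.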

Additional observations from a re-analysis of the deposited data

Results flagged for a closer look

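ALDH2, the mitochondrial acetaldehyde dehydrogenase, was drawn out because its PGCC minus parental difference had opposite signs in the 2 lines and exceeded 1.5-fold in each. It was 0.77 in Hey (0.823 to 2.11 TPM) and -1.10 in SKOV3 (1.58 to 0.203 TPM). With 1 library per line and state, the difference between the lines was not tested. All 6 values lie at or below 2.11 TPM.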

How the results depend on the processing

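No paired analysis was possible because each line and state has 1 library and the labels give no shared replicate numbers; the terms for line and state in limma are the only blocks used. Of the 90 differences of single genes, 82 with the pseudocount of 0.1, 86 with median-ratio division, 86 with quantile normalization, 89 without mitochondrial transcripts and 83 with the GC and length trend removed kept their side of 2-fold. Of the differences past 2-fold 0 changed sign. Among smaller ones 0, 7, 8, 2 and 8 did in this order of settings, the largest of them 0.50 in size as deposited.

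Counts of the 10 genes past 2-fold that moved by over 1.5 times were these. For Hey PGCCs against parental cells the count of 0 became 3 with the pseudocount of 0.1 and 4 at 1.5-fold. For Hey daughter against parental cells the count of 1 became 0 at 3-fold. For Hey daughter cells against PGCCs the count of 1 became 3 with the pseudocount of 0.1, 2 with median-ratio division, quantile normalization, mitochondrial transcripts left out or the GC and length trend removed, the gene gained under these 4 being ALDH1A3, 7 at 1.5-fold and 0 at 3-fold. In SKOV3, PGCCs against parental cells went from 2 to 1 at 3-fold or at a mean TPM of at least 5, daughter against parental cells from 1 to 2 with the pseudocount of 0.1 and to 4 at 1.5-fold, and daughter cells against PGCCs from 3 to 1 with the GC and length trend removed or at 3-fold. Between PGCCs of the lines the 8 genes became 4 at 3-fold. Smaller moves included 6 to 4 between parental cells and 8 to 6 between PGCCs of the lines once GC and length trends were taken out. The limma count for the lines, 5, was 4 with median-ratio division and 6 with the pseudocount of 0.1 or mitochondrial transcripts left out. It became 1 with all genes above 0 tested, where 31474 genes enter. It became 0 without the SKOV3 PGCC library or both PGCC libraries, where 1 residual degree of freedom is left. The cause of the moves in all these counts was not tested. With 1 library per group and no counts, levels near 1 TPM, as for ALDH2, ALDH1A2 and ALDH1L2 in SKOV3, have no stated precision.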

Other observations

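The 9 other ALDH genes of the list included 6 measured genes. Of these, 1 was past 2-fold in PGCCs and 1 in daughter cells against parental cells of SKOV3, beside 14.9% and 21.5% of all genes. In Hey 0 were in either comparison, beside 12.9% and 10.0%. ALDH9A1, which acts on aminoaldehydes, was the most abundant, at 68.7, 65.5 and 68.5 TPM in Hey parental cells, PGCCs and daughter cells and at 41.6, 32.5 and 53.8 TPM in SKOV3. ALDH3B1, a membrane-bound enzyme for lipid aldehydes, was at 13.8 TPM in SKOV3 parental cells and 33.5 TPM in PGCCs, a difference of 1.22 that was 0.42 with the GC and length trend taken out. ALDH6A1, which acts in valine degradation, was at 7.23 TPM in SKOV3 parental and 16.1 TPM in daughter cells, a difference of 1.06 that was 0.85 after the median-ratio division and 0.89 with the GC and length trend taken out, under 2-fold in both. ALDH5A1, which oxidizes succinic semialdehyde, was at 1.11 TPM in Hey PGCCs and 5.14 TPM in Hey daughter cells.

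ALDH1L1, the cytosolic relative of ALDH1L2, was listed at 0 TPM in SKOV3 parental cells and PGCCs and was at 4.15 TPM in SKOV3 daughter cells, while in Hey it did not exceed 0.254 TPM.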
